A study of Rattus norvegicus with 6 samples.

Results

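Transcripts of the neuropeptide S precursor gene, Nps, and of 9 genes that process neuropeptide precursors were measured by RNA sequencing in cultured rat cells. The 10 genes (Nps, Furin, Pcsk1, Pcsk2, Pcsk5, Pcsk6, Pcsk7, Cpe, Pam and Scg5) were chosen for their roles and matched by exact symbol. This choice, and that of the gene lists and rules used below, was made with earlier results of these data known. All 10 had a row among the 20653 genes of the deposited tables. The cells were mesenchymal stem cells from nasal mucosa, described as primary and of genotype SD. NPS-EMSC, in which neuropeptide S is overexpressed, and EMSC, the cells they were set against, had 3 libraries each. Both groups share source, tissue and genotype in the labels. The labels give no age of the animals, name no promoter or vector for the transgene and do not say whether EMSC received an empty vector, so effects of gene delivery or selection cannot be told apart from those of Nps. They also do not say whether the libraries of a group came from separate animals or cultures, so the p-values measure the spread between these libraries, which may be technical.

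Neuropeptides are made as longer precursors. Signal peptidase removes the signal peptide in the endoplasmic reticulum, and proprotein convertases then cut after basic residues, Furin and its relatives Pcsk5, Pcsk6 and Pcsk7 mainly along the constitutive secretory route, Pcsk1 and Pcsk2 in the dense core granules of neurons and endocrine cells. Carboxypeptidase E (Cpe) trims the basic residues left at the new end, and the monooxygenase Pam turns a terminal glycine into an amide where the peptide has one. Scg5 (7B2) is the chaperone that Pcsk2 needs to become active.

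The libraries held 39082245 to 39511976 counted reads in NPS-EMSC and 39314098 to 40261205 in EMSC. All 10 listed mesenchymal stem cell markers were tested, 7 higher and 3 lower, with a summed level of 10685 to 11106 CPM (counts per 1000000 reads) in NPS-EMSC and 10811 to 12162 CPM in EMSC. Over all tested genes 59.3% differed between the groups, 29.7% higher and 29.5% lower, by the test given in the next paragraph. Markers of other cell types also differed between the groups. Of 9 leukocyte markers 6 were tested, 5 fell and 1 rose, and their sum was 38.5 to 41.2 CPM in NPS-EMSC and 72.4 to 81.3 CPM in EMSC. The 1 that rose, Cd14, made up most of the NPS-EMSC sum, at 31.4 ± 0.614 CPM, against 15.1 ± 2.43 CPM in EMSC. Lyz2 fell to 3.84 ± 0.940 CPM in NPS-EMSC, against 52.5 ± 7.71 CPM in EMSC. Ptprc had 1 read in all of NPS-EMSC and 94 in EMSC, and Csf1r, Itgam and Cd68 also fell. Of 9 Schwann and neuronal markers 4 were tested, 3 fell and 1 rose, with sums of 7.37 to 9.20 CPM in NPS-EMSC and 30.5 to 32.2 CPM in EMSC. Ptprc, Csf1r (5 reads in NPS-EMSC, 66 in EMSC) and Itgam (19 in NPS-EMSC, 149 in EMSC) entered the test only through EMSC, where they are high. The same holds for Snap25 of the Schwann and neuronal markers (23 in NPS-EMSC, 108 in EMSC). Entry of this kind favours a call. Of the neuroendocrine markers, Neurod1 and Syp had at most 0.231 CPM in any library and Ncam1 fell, while Chga and Insm1 are not analysed here. Of 8 epithelial markers 2 were tested, Krt8 and Krt18, and both rose. Epithelial markers summed to 10.3 to 13.2 CPM in NPS-EMSC and 4.18 to 4.96 CPM in EMSC. Krt5, too low to test, went the other way, with 0 reads in NPS-EMSC against 7, 3 and 18 in EMSC. Epcam and Cdh1 had at most 4 reads in any library. Endothelial markers summed to 2.29 to 2.98 CPM in NPS-EMSC and 2.67 to 3.11 CPM in EMSC. The part of these cell types in the results below was not tested, and in bulk libraries fewer cells of a type and less RNA per cell cannot be told apart.

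The processing genes did not move as a block: Cpe and Scg5 rose, Pcsk6 and Pcsk5 fell, and Furin, Pcsk7, Pam and Pcsk1 did not pass the test. All 14505 genes with enough reads entered 1 edgeR quasi-likelihood fit, and genes with an adjusted p under 0.05 (Benjamini-Hochberg) count as called. Of the 9 processing genes 8 were tested, and 2 were called higher and 2 lower, or 50% of those tested, where 59.3% of all tested genes were called. By direction, 29.7% of all tested genes were higher and 29.5% lower. The median log2 fold change (NPS-EMSC over EMSC) of the 8 was 0.04, against -0.0048 over all tested genes, and the median absolute value was 0.40 against 0.34. The values of the groups did not overlap in 4 of the 8, on the CPM scale, where 64.7% of all tested genes were without overlap. These were Cpe, Scg5, Pcsk6 and, by a narrow gap, Pam. They are not the same as the called genes, since Pam was not called and the called Pcsk5 overlapped. Neither share of the processing genes lay above that of all genes.

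**Figure D1:**
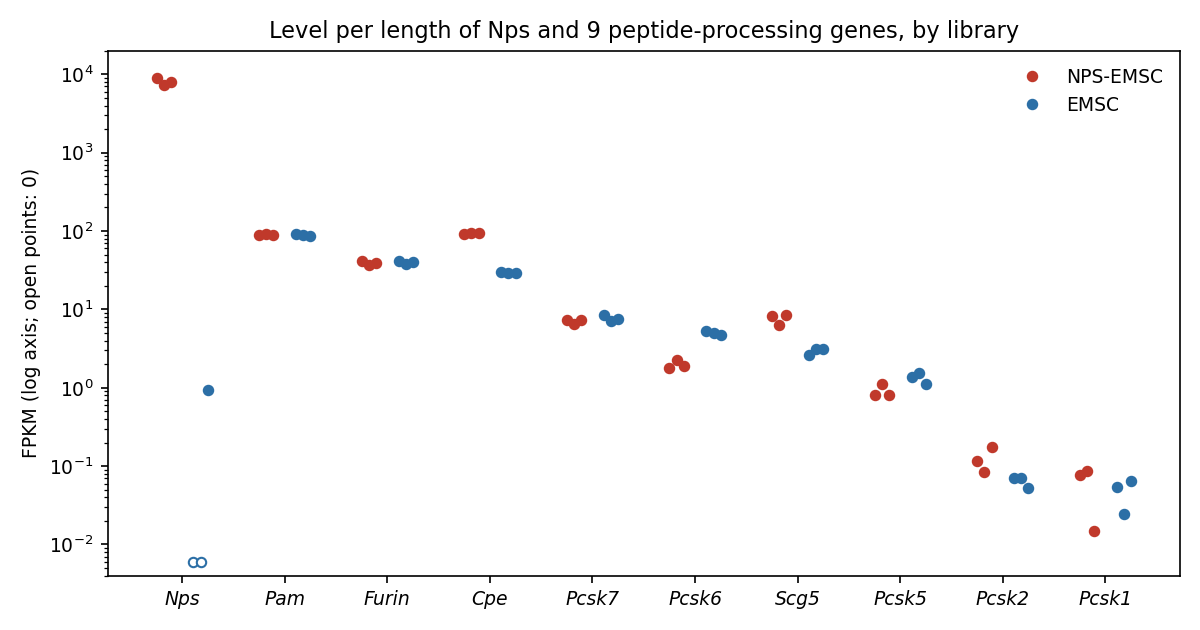
FPKM (log axis) of the 10 genes in each of the 6 libraries, NPS-EMSC left and EMSC right within each gene, with open points for 0. Nps stands between 7298 and 8853 FPKM in NPS-EMSC and at 0, 0 and 0.942 FPKM in EMSC, and Pam, Furin and Cpe are the processing genes with the highest levels.

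Nps was present at a very high level in NPS-EMSC and nearly absent in EMSC. Its FPKM (fragments scaled to gene length and library total) was 8853, 7298 and 8053 in the NPS-EMSC libraries, against 0, 0 and 0.942 in the EMSC libraries. Per length it ranked 2 among all genes in each NPS-EMSC library, behind the mitochondrial gene COX1 at 14509, 14282 and 14623 FPKM. The gene length behind these FPKM values, recovered from counts and FPKM, was 270 bases for Nps, a short length that raises its value, and only 38 genes had a length of 270 bases or less. By read counts, with no length in the measure, Nps ranked 27, 35 and 34. On the log2 scale the fit gave a difference of 14.02 (SE 0.31, adjusted p = 7.62e-07). The 10 reads of EMSC all lay in replicate 3, whose level was 0.0113% of the NPS-EMSC mean, and without that library the fitted value was 15.41. In EMSC replicates 1 and 2 a count of 0 allows up to 3 reads, or 0.0747 and 0.0745 CPM on the raw library totals, without TMM scaling. Per group, 256496 reads in NPS-EMSC against 10 in EMSC gave a ratio of 26080 after scaling to the library totals (exact 95% interval 14181 to 54387, counting error only).

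In NPS-EMSC the level of Nps exceeded that of every other listed peptide precursor analysed here. Of 45 listed genes of peptide hormones and neuropeptides, 31 are analysed here. Adm, the precursor of adrenomedullin, was the highest of these in every library, at 368 ± 6.31 FPKM in NPS-EMSC and 153 ± 7.71 FPKM in EMSC (SD, n = 3 each). Nps stood 21.9 ± 1.90 times above Adm per length in NPS-EMSC (SD, n = 3). It made up 93.6% to 94.6% of the summed FPKM of Nps and the listed precursors in the 3 NPS-EMSC libraries, against 0%, 0% and 0.434% in the EMSC libraries. These ratios rest on the 270-base length. On the CPM scale, with no length in the measure, Nps stood at 2214 ± 226 and Adm at 518 ± 10.9 in NPS-EMSC. The other precursors together came to 505 ± 8.09 FPKM in NPS-EMSC and 218 ± 9.71 FPKM in EMSC.

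Genes next to Nps did not share its pattern. GRCr8, a rat assembly, was used here for neighbours and promoter windows only, and the build behind the counts is not given. In its RefSeq gene order the nearest 3 protein-coding genes before Nps are Dock1, Insyn2a and C1h10orf90. The nearest 3 after Nps are Foxi2, Clrn3 and Ptpre. C1h10orf90 and Foxi2 are not analysed here. Dock1, a guanine nucleotide exchange factor for Rac, fell to 60.1 ± 1.80 CPM in NPS-EMSC, against 92.6 ± 2.17 CPM in EMSC. The phosphatase gene Ptpre had 279, 352 and 296 reads in NPS-EMSC, against 703, 631 and 698 in EMSC (log2 fold change -1.06, SE 0.12, adjusted p = 1.99e-08). Insyn2a had 4, 0 and 0 reads in NPS-EMSC against 1, 1 and 0 in EMSC, and Clrn3 had 0 reads in NPS-EMSC against 0, 1 and 0 in EMSC. Both neighbours with enough reads to be tested, Dock1 and Ptpre, were thus lower. The counts do not separate transgene reads from those of the chromosomal gene.

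Few genes were so nearly absent from EMSC and so clearly present in NPS-EMSC. With a mean under 0.1 CPM in EMSC and at least 5 CPM in NPS-EMSC as the measure of likeness, over the 6 libraries, 6 genes other than Nps qualified. The highest were Cyp4b1 at 15.1 ± 1.01 CPM in NPS-EMSC and 0.0490 ± 0.0417 CPM in EMSC, and Serpina6 at 9.53 ± 1.80 CPM in NPS-EMSC and 0.0324 ± 0.0561 CPM in EMSC (SD, n = 3 each). Dkk1, a secreted Wnt inhibitor, had 8.60 ± 1.49 CPM in NPS-EMSC and 0.0998 ± 0.1002 CPM in EMSC, and Cited1, a transcriptional co-regulator, had 7.99 ± 1.05 CPM in NPS-EMSC and 0.0657 ± 0.0371 CPM in EMSC. The next was a locus without a gene name at 6.43 ± 0.671 CPM in NPS-EMSC and 0.0408 ± 0.0372 CPM in EMSC. All lay more than 100 times below the Nps level of 2214 ± 226 CPM.

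Promoter sequence is shown for the 3 processing genes with the largest called changes, Cpe and Scg5, which rose, and Pcsk6, which fell. RefSeq promoter windows (assembly GRCr8) were found for 7 of the 10 genes, not for Nps, Furin and Pcsk1. The bases before the outermost annotated start are printed 5′ to 3′ on the strand of the gene, 250 for Cpe and Pcsk6. The Scg5 window is placed on a start that lies inside the outermost one, so only its first 164 bases are printed. Capitals mark TGACG, the core of the cAMP response element, and GGGCGG, the GC box, on either strand; the printed stretch of Scg5 holds neither.
Cpe, chr16:29796457-29796706, plus strand: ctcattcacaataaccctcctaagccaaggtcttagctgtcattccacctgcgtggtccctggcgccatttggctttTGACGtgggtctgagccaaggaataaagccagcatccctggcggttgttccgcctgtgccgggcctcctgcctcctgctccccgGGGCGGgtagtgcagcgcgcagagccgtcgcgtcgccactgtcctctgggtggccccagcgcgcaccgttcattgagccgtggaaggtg
Scg5, chr3:121042882-121043045, minus strand: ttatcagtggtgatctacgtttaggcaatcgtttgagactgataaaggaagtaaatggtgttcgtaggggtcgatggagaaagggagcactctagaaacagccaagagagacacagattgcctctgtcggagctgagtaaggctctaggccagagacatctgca
Pcsk6, chr1:128839492-128839741, plus strand: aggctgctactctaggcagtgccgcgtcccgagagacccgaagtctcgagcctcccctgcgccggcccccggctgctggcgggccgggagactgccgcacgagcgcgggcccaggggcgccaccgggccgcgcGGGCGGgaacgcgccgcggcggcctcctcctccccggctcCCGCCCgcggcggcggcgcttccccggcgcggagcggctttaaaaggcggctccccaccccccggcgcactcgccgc
Motifs were searched on both strands in the 250 bases before the start in all 33469 windows of the table, with distances counted from the start on which the window is placed. The core TGACG was found in Cpe, 173 bases before the start, in Scg5, 7 bases before the inner start and outside the printed stretch, and in Pcsk2 and Pam. It occurs in 18.2% of all windows. The GC box was found in Cpe, Scg5, Pcsk2, Pcsk5 and Pcsk6, where 30.5% of all windows hold it, and Pcsk6 has it at 117 and 77 bases before the start. No window of the 7 genes (0 of 7) held TGACGTCA, the complete cAMP response element that contains TGACG (1.59% of all windows), TGANTCA, the AP-1 motif (6.34%), or TATAAA, the TATA box (12.9%). These matches describe letters and not binding.

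Cpe, the carboxypeptidase that trims basic residues from cut peptides, rose most among the processing genes. Its read counts were 7557, 7605 and 7709 in the NPS-EMSC libraries, against 2521, 2423 and 2406 in the EMSC libraries. On the CPM scale these were 197, 197 and 198 in NPS-EMSC and 61.2, 59.9 and 60.3 in EMSC, so the groups lay far apart and each was nearly constant. The rise was 3.26-fold (log2 fold change 1.71, SE 0.05, 95% interval of the fold 3.05 to 3.49, adjusted p = 2.24e-20). The coefficient of variation within NPS-EMSC was 0.348%, below the 1.15% that counting error alone gives for its mean count, and in EMSC it was 1.10% against 2.02%. An increase at least as large was found in 3.16% of all tested genes.

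Scg5, the chaperone of Pcsk2, also rose, at a level far below that of Cpe. It had 399, 309 and 409 reads in NPS-EMSC against 128, 154 and 150 in EMSC. Per length these were 8.27, 6.42 and 8.40 FPKM in NPS-EMSC and 2.59, 3.10 and 3.10 FPKM in EMSC. The lowest NPS-EMSC library, replicate 2, still lay above all EMSC libraries. The rise was 2.69-fold (log2 fold change 1.43, SE 0.16, 95% interval of the fold 2.14 to 3.38, adjusted p = 2.80e-08), and 4.16% of all tested genes rose as much or more. Its partner Pcsk2 stayed at a few reads per library, as given below.

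Pam, the amidating enzyme, was the most abundant processing gene in EMSC and showed no called change. It had 88.7, 91.6 and 90.3 FPKM in NPS-EMSC and 92.9, 89.8 and 86.9 FPKM in EMSC, with the NPS-EMSC values inside the range of EMSC. On the CPM scale the lowest NPS-EMSC library (404.98) was just above the highest EMSC library (404.81). The log2 fold change was 0.05 (SE 0.04, adjusted p = 0.341), and the 95% interval of the fold was 0.972 to 1.10.

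**Figure D2:**
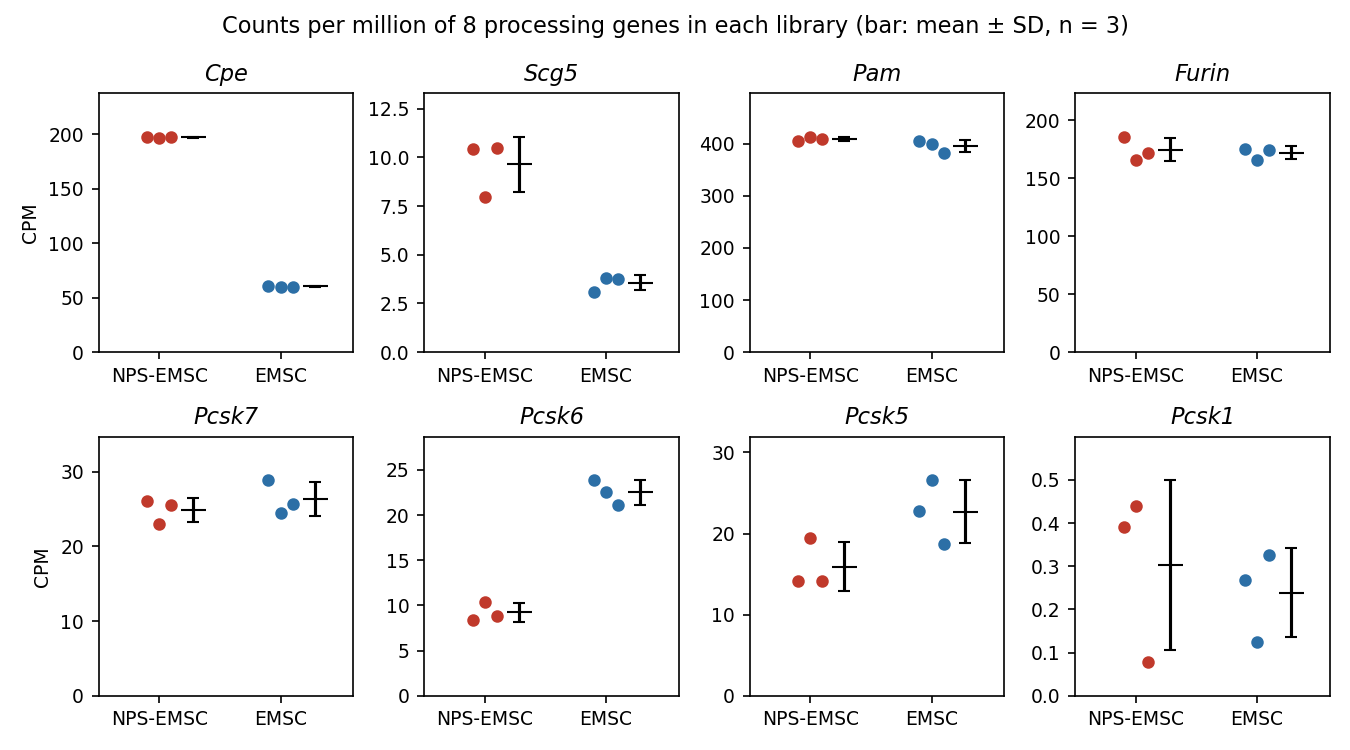
CPM of 8 processing genes in each library (points), with mean and SD (n = 3) beside them, NPS-EMSC left and EMSC right, each axis from 0. Cpe and Scg5 are higher and Pcsk6 lower in all 3 NPS-EMSC libraries, Pcsk5 overlaps between the groups, and Pam and Furin lie at nearly the same level.

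Furin, the broadly expressed convertase of the trans-Golgi network, showed no called change. It had 41.3, 37.4 and 38.6 FPKM in NPS-EMSC and 40.9, 37.7 and 40.4 FPKM in EMSC, overlapping throughout. The log2 fold change was 0.02 (SE 0.05, adjusted p = 0.695), with a 95% interval of the fold of 0.948 to 1.09. Its sign turned negative under other scalings, so no direction is given. Pcsk7, another membrane-bound convertase of the secretory route, had 7.32, 6.53 and 7.25 FPKM in NPS-EMSC and 8.51, 7.06 and 7.50 FPKM in EMSC. Its groups overlapped, with a log2 fold change of -0.08 (SE 0.08, adjusted p = 0.408) and a 95% interval of the fold of 0.837 to 1.06.

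Pcsk6 (PACE4), a convertase that binds the extracellular matrix, fell. It had 321, 403 and 345 reads in NPS-EMSC against 982, 912 and 843 in EMSC, or 1.80, 2.26 and 1.91 FPKM in NPS-EMSC against 5.36, 4.96 and 4.70 FPKM in EMSC. The groups were well separated, with a log2 fold change of -1.28 (SE 0.11, adjusted p = 9.71e-11), which makes EMSC 2.43-fold higher than NPS-EMSC. A decrease of that size or more was found in 5.98% of all tested genes. Its promoter window holds 2 GC boxes, against 1 each in those of Cpe and Scg5 and 7 in that of Pcsk2. A link between the motif and the change was not tested. Pcsk5, the other matrix-binding convertase, fell less. It had 543, 751 and 550 reads in NPS-EMSC against 936, 1074 and 749 in EMSC, and on the CPM scale 14.2, 19.4 and 14.1 in NPS-EMSC against 22.7, 26.6 and 18.8 in EMSC. The highest NPS-EMSC library, replicate 2, lay above the lowest EMSC library, replicate 3, so the groups overlapped. The log2 fold change was -0.51 (SE 0.14, 95% interval -0.81 to -0.21, adjusted p = 0.00572), and the call was lost on log2(FPKM + 1) values without a filter (adjusted p = 0.0633).

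The granule convertases Pcsk1 and Pcsk2 were at the edge of detection in both groups. Pcsk1 had 15, 17 and 3 reads in NPS-EMSC against 11, 5 and 13 in EMSC. The groups overlapped, and the log2 fold change of 0.29 had an SE of 0.58 (adjusted p = 0.691), so changes between 0.533-fold and 2.80-fold lie inside its 95% interval. Pcsk2 had 11, 8 and 17 reads in NPS-EMSC against 7, 7 and 5 in EMSC, too few for the filter on low counts. All 3 NPS-EMSC libraries lay above the EMSC libraries in CPM, at 0.287, 0.207 and 0.437 CPM in NPS-EMSC and 0.170, 0.173 and 0.125 CPM in EMSC. Without that filter its log2 fold change was 0.81 (SE 0.73, adjusted p = 0.393). Neither difference passed the test at this depth.

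Among the 6 convertases, Furin carried most of the summed FPKM in both groups. Its share was 79.4% ± 0.829 in NPS-EMSC and 73.7% ± 1.18 in EMSC (SD, n = 3 each). Pcsk7 made up 14.3% ± 0.554 in NPS-EMSC and 14.3% ± 0.744 in EMSC, and Pcsk6 4.06% ± 0.644 in NPS-EMSC and 9.30% ± 0.496 in EMSC. Pcsk1 and Pcsk2 together stayed under 0.5% in every library. The 6 convertases summed to 47.5 to 51.5 FPKM in NPS-EMSC and 51.4 to 56.3 FPKM in EMSC. The FPKM of Nps was 154 to 172 times the summed FPKM of the 6 convertases in NPS-EMSC. The shares rest on gene lengths that ranged from 2446 bases for Pcsk2 to 17082 bases for Pcsk5.

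The order of levels per length differed between the groups at the top. In NPS-EMSC it was Cpe (93.0 FPKM), Pam (90.2), Furin (39.1), Scg5 (7.70), Pcsk7 (7.03), Pcsk6 (1.99), Pcsk5 (0.917), Pcsk2 (0.125) and Pcsk1 (0.0591), as means of 3 libraries. In EMSC it was Pam (89.9 FPKM), Furin (39.7), Cpe (29.4), Pcsk7 (7.69), Pcsk6 (5.004), Scg5 (2.93), Pcsk5 (1.35), Pcsk2 (0.0648) and Pcsk1 (0.0482). Scg5 and Pcsk7 overlapped between libraries in NPS-EMSC, as did Pcsk2 and Pcsk1 in both groups, so their order is not fixed by these data.

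**Figure D3:**
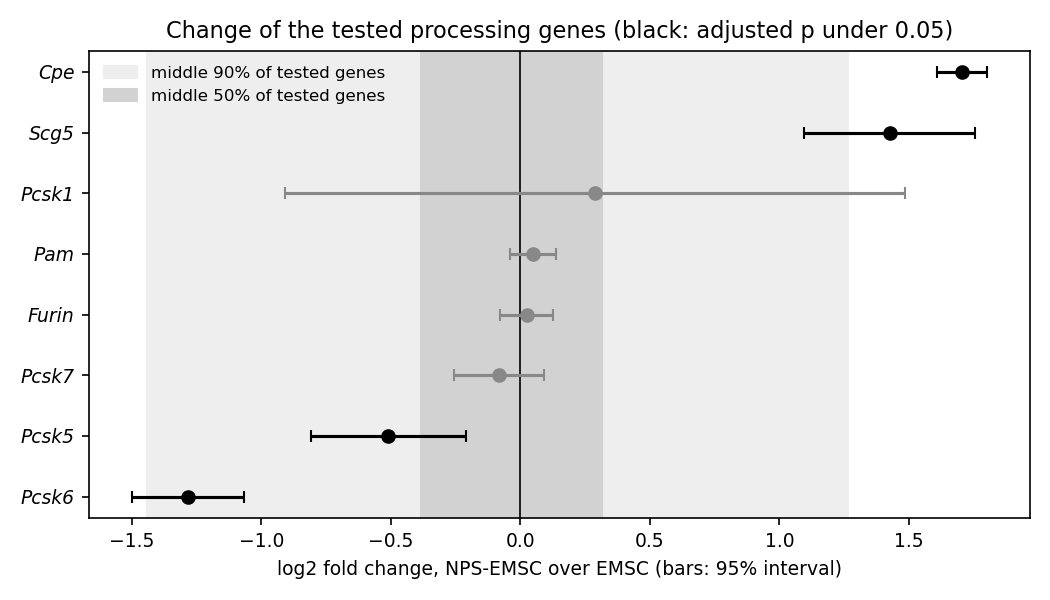
Log2 fold change (NPS-EMSC over EMSC) of the 8 tested processing genes with 95% intervals, in black where adjusted p was under 0.05 and in grey otherwise, over bands that hold the middle 50% and 90% of all tested genes. Cpe and Scg5 lie above the 90% band, Pcsk6 and Pcsk5 lie inside it on the lower side, and Nps, at 14.02, is off the scale.

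Other subtilisin-like proteases and the regulators of convertases were also measured. Mbtps1, the site-1 protease that cuts sterol-response and stress factors in the Golgi, fell to 236 ± 3.82 CPM in NPS-EMSC, against 368 ± 1.02 CPM in EMSC (SD, n = 3 each, log2 fold change -0.64, SE 0.04, adjusted p = 1.87e-12). Pcsk4, best known from germ cells, rose to 3.10 ± 0.570 CPM in NPS-EMSC, against 1.85 ± 0.175 CPM in EMSC (adjusted p = 0.0121), a call lost without NPS-EMSC replicate 3 (adjusted p = 0.0813). All 3 tested members of the list of convertase regulators and sorting adaptors fell, of 4 listed, with a median of -0.48, where 29.5% of all tested genes fell. Pcsk1n (proSAAS), the precursor of an inhibitor of Pcsk1, fell to 14.1 ± 1.72 CPM in NPS-EMSC, against 23.6 ± 1.91 CPM in EMSC. Pacs1, the adaptor that returns Furin to the trans-Golgi network, had a log2 fold change of -0.48 (SE 0.07) and Pacs2 one of -0.24 (SE 0.05).

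Relatives of Cpe moved in opposite directions. Of 7 listed genes 6 were tested, 2 rose, 1 fell and 3 did not pass, with a median log2 fold change of 0.11. The called share was 50%, where 59.3% of all tested genes were called. Cpm, a membrane-bound carboxypeptidase, rose 4.46-fold to 14.6 ± 0.827 CPM in NPS-EMSC, against 3.24 ± 0.285 CPM in EMSC. Cpz, a matrix carboxypeptidase, fell to 23.8 ± 1.64 CPM in NPS-EMSC, against 98.7 ± 3.81 CPM in EMSC (log2 fold change -2.05, SE 0.06, adjusted p = 1.26e-19). Cpxm1, a relative without known enzyme activity, rose to 8.53 ± 0.536 CPM in NPS-EMSC, against 4.24 ± 0.401 CPM in EMSC. Cpxm2 had 78.5 ± 3.39 CPM in NPS-EMSC and 72.0 ± 6.75 CPM in EMSC (adjusted p = 0.0827), and passed without EMSC replicate 2 (adjusted p = 0.00819). The count of lower genes was 2 without EMSC replicate 1.

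Of 11 other listed enzymes that finish peptides 10 were tested, 2 rose and 6 fell, with a median log2 fold change of -0.21. Thus 80% of the tested ones were called, against 59.3% of all tested genes. Qpct, which forms pyroglutamate at the start of peptides, fell to 1.74 ± 0.443 CPM in NPS-EMSC, against 8.64 ± 0.969 CPM in EMSC (log2 fold change -2.28, SE 0.19, adjusted p = 1.77e-10), and its Golgi relative Qpctl had a log2 fold change of -0.45 (SE 0.07). The lysosomal protease genes Ctsb and Ctsh differed in direction, with Ctsb at 2302 ± 27.0 CPM in NPS-EMSC and 1234 ± 33.2 CPM in EMSC and Ctsh at 480 ± 4.82 CPM in NPS-EMSC and 820 ± 38.0 CPM in EMSC. Both changes passed (adjusted p = 6.70e-15 for Ctsb and 1.55e-13 for Ctsh).

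Genes that supply Pam with its cofactors copper and ascorbate were split. Of 7 listed genes 6 were tested, 2 rose, 3 fell and 1 did not pass, with a median log2 fold change of -0.10. Among these few genes 83.3% were called, against 59.3% of all tested genes. Atp7a, the pump that carries copper into the secretory pathway, fell to 42.9 ± 2.75 CPM in NPS-EMSC, against 67.0 ± 2.97 CPM in EMSC (log2 fold change -0.64, SE 0.06, adjusted p = 1.51e-09). The copper importer Slc31a1 rose 1.26-fold and the ascorbate transporter Slc23a2 1.23-fold, the second not called on log2(FPKM + 1) values without a filter (adjusted p = 0.0584). Cyb561, the granule cytochrome that regenerates ascorbate, stood at 0.630 ± 0.0819 CPM in NPS-EMSC and 1.78 ± 0.762 CPM in EMSC, a called decrease at a very low level (adjusted p = 0.00224).

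**Figure D4:**
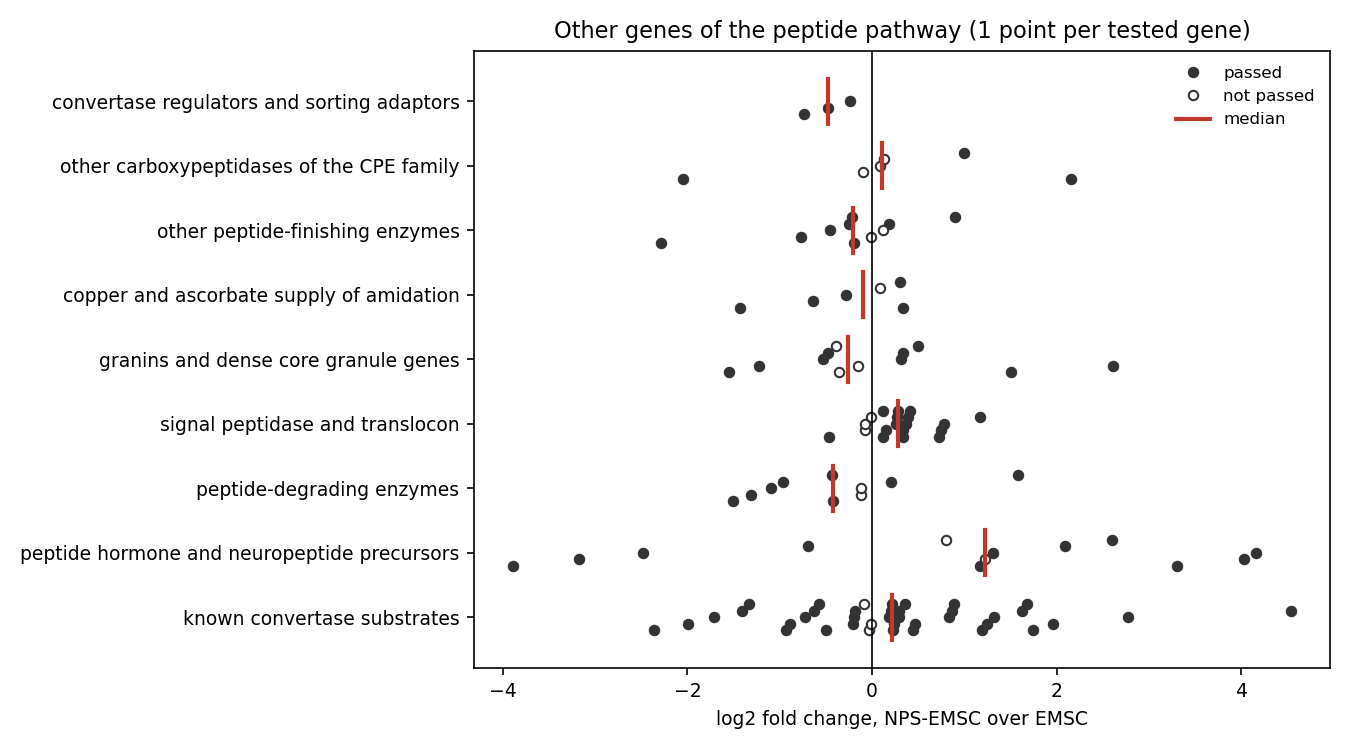
Log2 fold change (NPS-EMSC over EMSC) of each tested gene of 9 lists of the peptide pathway, filled where adjusted p was under 0.05, with the median of each list in red. Signal peptidase and translocon genes lie mostly to the right of 0 (median 0.28), while the other lists spread over both sides or hold few genes.

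Genes of dense core granules moved in both directions. Of 19 listed granin and granule genes, Chga, Ptprn2 and Cadps are not analysed here and 4 others had too few reads to test. Of the 12 tested, 5 rose and 4 fell, with a median log2 fold change of -0.26. Calls thus made up 75%, against 59.3% over all tested genes. Vgf, a granin-like precursor, rose 6.10-fold to 7.28 ± 1.26 CPM in NPS-EMSC, against 1.15 ± 0.355 CPM in EMSC (log2 fold change 2.61, SE 0.22, adjusted p = 2.04e-10). Rab27b, a GTPase of granule docking, fell to 22.1 ± 2.63 CPM in NPS-EMSC, against 64.5 ± 6.69 CPM in EMSC. Ptprn, a granule membrane protein also called IA-2, fell to 151 ± 7.89 CPM in NPS-EMSC, against 218 ± 19.1 CPM in EMSC, and Ccdc186, which acts in granule maturation, rose 1.41-fold.

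Genes of entry into the secretory pathway were mostly higher by small amounts. Of 21 listed symbols 19 were tested, 15 rose, 1 fell and 3 did not pass, with a median log2 fold change of 0.28 against -0.0048 over all tested genes, of which 29.7% rose and 29.5% fell. Spcs3, a signal peptidase subunit, rose to 122 ± 3.46 CPM in NPS-EMSC, against 54.1 ± 3.69 CPM in EMSC (log2 fold change 1.17, SE 0.05, adjusted p = 1.22e-15). The translocon-associated genes Ssr2 and Ssr4 rose 1.71-fold and 1.68-fold, and Srp68, a subunit of the signal recognition particle, rose 1.66-fold.

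Of 13 listed enzymes that break peptides down 10 were tested, 2 rose and 6 fell, with a median log2 fold change of -0.43. This is 80% called, against 59.3% of all tested genes. Anpep (aminopeptidase N) rose 2.99-fold to 2056 ± 91.1 CPM in NPS-EMSC, against 687 ± 41.7 CPM in EMSC. Mme (neprilysin) fell to 81.2 ± 5.20 CPM in NPS-EMSC, against 231 ± 27.4 CPM in EMSC. Enpep (aminopeptidase A) had a log2 fold change of -0.97 (SE 0.05), and Cpq, a lysosomal and secreted dipeptidase, one of -1.32 (SE 0.05).

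Other peptide precursors and known convertase substrates changed in both directions. Of the 45 listed precursors other than Nps 13 had enough reads to be tested, 7 rose and 4 fell. The median log2 fold change of the 13 was 1.23, against -0.0048 over all tested genes. The called share was 84.6%, against 59.3% of all tested genes. Another 18 had too few reads, so these counts describe the genes detected and not all precursors. Vip had 0 reads in every EMSC library (40, 17 and 33 in NPS-EMSC) and Sst 0 in every NPS-EMSC library (33, 31 and 21 in EMSC). Adm2 (193 reads in NPS-EMSC, 15 in EMSC), Nts (64 in NPS-EMSC, 6 in EMSC) and Pthlh (832 in NPS-EMSC, 43 in EMSC) were low in EMSC. Npw (13 in NPS-EMSC, 173 in EMSC) was low in NPS-EMSC. All of these genes were called. Such genes passed the filter only through the group where they are high, which favours a call. Adm rose 2.48-fold, and Penk, the enkephalin precursor, rose to 192 ± 6.34 CPM in NPS-EMSC, against 85.6 ± 5.66 CPM in EMSC. Pthlh (parathyroid hormone-related peptide) rose to 7.18 ± 0.717 CPM in NPS-EMSC, against 0.353 ± 0.187 CPM in EMSC, and Apln (apelin) fell to 0.776 ± 0.156 CPM in NPS-EMSC, against 4.57 ± 0.295 CPM in EMSC. Of 41 listed convertase substrates 39 were tested, 22 rose, 14 fell and 3 did not pass, with a median log2 fold change of 0.22. Called substrates made up 92.3% of those tested, against 59.3% of all tested genes. Small changes of genes with many reads were among the calls, such as Notch2 at -0.18 and Igf1r at 0.18. Read depth, which affects how often a gene is called, was not matched in this comparison or in those of the other lists. Vegfd rose 2.51-fold and the integrin chain Itga3 3.34-fold, while Igf2 had a log2 fold change of -1.99 (SE 0.05) and Pdgfc one of -1.72 (SE 0.06). Transcript levels do not measure cleavage.

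The receptor of neuropeptide S, Npsr1, is not analysed here. Of the related vasopressin and oxytocin receptors, Avpr1a rose to 154 ± 10.1 CPM in NPS-EMSC, against 86.7 ± 3.97 CPM in EMSC (log2 fold change 0.83, SE 0.05, adjusted p = 8.25e-13), and Oxtr had at most 0.173 CPM in any library.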

How the data were processed

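RNA of 6 libraries, 3 of NPS-EMSC and 3 of EMSC, was extracted with TRIzol and built into libraries with a VAHTS kit, per the labels' protocols. Tools listed in the submitters' processing notes are HISAT2, StringTie, HTSeq, fastp, R 3.2.0 and DESeq. Build, annotation and strand setting: not given in the sources used here. The authors deposited raw read counts per gene and an FPKM table of the same genes. Counts divided by FPKM and library total gave 1 length per gene for all 20653 genes, to within 0.1%.

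Counts were tested with edgeR 4.0.16 in R 4.3.3 (TMM, filterByExpr with minimum count 10 and total 15, robust glmQLFit with prior count 2, glmQLFTest, Benjamini-Hochberg over 14505 genes), with groups from the cell type labels. The SE is the absolute log2 fold change over the square root of F, and 95% intervals use it with the test's degrees of freedom. CPM values use TMM-scaled totals. Levels of different genes are compared as FPKM. Replicate pairs differed by 5.08 to 12.6 times the sampling noise (mean chi-square per gene), so none was counted as 1 library. The fit was tested on simulated counts.

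Named were all 10 genes, up to 4 tested members of each related list by smallest p, the nearest 3 coding neighbours of Nps on each side, and up to 5 genes with a mean under 0.1 CPM in EMSC and at least 5 CPM in NPS-EMSC. Marker genes and genes at very low counts outside this rule were added with their values in view. The members, the lists and the rules were chosen with earlier results of these data known. A few listed genes are not reported here. Alternatives were DESeq2 1.42.0, limma-voom (limma 3.58.1), upper-quartile or RLE factors, no filter, 1 CPM in 3 libraries, log2(FPKM + 1) and log2(FPKM + 0.1) with an FPKM of at least 0.5 in 3 libraries, log2(FPKM + 1) without a filter, an adjusted p under 0.01, a replicate block and leaving out each library.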

Additional observations from a re-analysis of the deposited data

How the results depend on the processing

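Nps, Cpe, Scg5 and Pcsk6 kept their direction and their call under all 17 alternatives, with log2 fold changes of 12.65 to 15.98, 1.63 to 1.71, 1.14 to 1.54 and -1.38 to -1.01. Pcsk5 ranged from -0.68 to -0.29 and lost its call once, on log2(FPKM + 1) without a filter (-0.29), where 1 processing gene was called lower in place of 2. Furin and Pcsk1, neither of them called, changed sign: Furin was -0.00999 with upper-quartile factors, -0.0208 on log2(FPKM + 1) with or without a filter and -0.0213 on log2(FPKM + 0.1), and without 1 library it ranged from -0.0214 to 0.0606. Pcsk1 ranged from -0.0231 to 0.69 without 1 library. Counts of called genes over all genes were 7121 to 8914. In the related lists, the higher count of other subtilisin-like convertases was 0 at adjusted p under 0.01 and 0 to 1 without 1 library. The lower count of the carboxypeptidases was 2 with upper-quartile factors and on both filtered FPKM fits, and 1 to 2 without 1 library. On log2(FPKM + 1) without a filter the higher counts of cofactor genes and of peptide-degrading enzymes were each 1. The cause was not tested. Same-numbered libraries had deviations correlated at -0.0389, 0.0460 and 0.0356 over genes, and differently numbered ones at -0.0822 to 0.0512. With deviations centred on only 3 libraries per group, these values do not decide whether the replicate numbers pair the libraries. The replicate block gave 8588 called genes and changed no call of the 9 genes tested with it (Pcsk2 was not), while Cpxm2 was called with it (adjusted p = 0.0395). Depth limits Pcsk1 and Pcsk2, and the length of 270 bases limits what the FPKM of Nps means.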
